A study of Mus musculus with 6 samples.

Results

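The subunits of respiratory complex I were described across 6 libraries of mouse B cells. Members were all genes of the deposited table whose symbol starts with Nduf followed by a subunit letter and number (or ab1), with the Ndufaf assembly factors left out, which gave 38 of 22788 genes. The study compared 3 libraries of wild type (WT) B cells with 3 libraries of B cells labelled PP2Aa-deficient, whose genotype label gives a Cre and floxed alleles (flox/flox) of Ppp2r1a, the gene of the alpha form of the scaffold subunit of protein phosphatase 2A. All libraries were labelled as from 8-week-old mice on a C57BL/6 background. The labels name no Cre in the WT mice, so Cre and the deletion cannot be told apart. The tissue label is spleen while the protocols describe a peritoneal lavage, and which holds is not settled. The deposited plate sheet gives other names, miRNA controls for the WT wells and miRNA targets for the rest, and the genotype labels set the groups here. Replicate numbers were given here in the order of the samples within a group. The same number in both groups does not mark a pair.

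Complex I takes electrons from NADH, passes them along a flavin and a chain of iron-sulfur clusters to ubiquinone, and pumps protons across the inner mitochondrial membrane. Its matrix arm holds the N module, where NADH is oxidised, and the Q module, where ubiquinone is reduced. Its membrane arm has a proximal part, next to the Q module, and a distal part. Core subunits do the chemistry and are shared with bacteria, and accessory subunits surround them. The core subunits of the membrane arm are encoded by mitochondrial DNA and were not analysed here. Resting B cells keep a small mitochondrial mass, and activation and antibody secretion are known to raise the demand on respiration.

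Expression was given as FPKM, fragments per kilobase of transcript and scaled to the mapped fragments of the library. Relative depth, read from the steps of low FPKM values, ran from 0.978 to 1.76, with WT replicate 2 the deepest library and PP2Aa-deficient replicate 2 the shallowest. This corresponds to about 2000000 to 3590000 fragments. Ppp2r1a, the floxed gene, had 85.7, 85.4 and 83.7 FPKM in the WT libraries, against 31.3, 56.2 and 28.2 FPKM with PP2Aa deficiency. Its log2 change was -1.18 (limma adjusted p = 0.168), and without PP2Aa-deficient replicate 2 it was -1.48 (limma adjusted p = 0.00555, with a range of 0.00555 to 0.482 over the alternatives). The B cell markers Cd79a, Cd79b, Ms4a1, Pax5 and Cd22 summed to 2844 to 2991 FPKM in WT and to 2776 to 3187 FPKM in PP2Aa-deficient libraries. Plasma cell markers summed to 1019.8 to 1386 FPKM in WT and to 371 to 641 FPKM in PP2Aa-deficient libraries, with 6 of 6 tested markers at a lower mean and 4 of them without overlap. A single marker made up most of the plasma cell sum in each WT library. Macrophage markers summed to 184 to 359 and 104 to 163 FPKM in the same order, with 3 of 5 tested markers lower and 2 of those without overlap. Of all tested genes, 7.4% were lower without overlap. Apoe, which is not limited to macrophages, made up most of that sum, at 159 to 326 FPKM in WT and 77.3 to 139.9 FPKM in PP2Aa-deficient libraries. Lyz2 and Cd68, the 2 tested macrophage markers that were not lower, had log2 changes of 0.01 and 0.07. Gata6, which marks large peritoneal macrophages, was at 0 in all libraries. Granulocyte and mast cell markers summed to 22.4 to 45.5 and 11.4 to 14.6 FPKM. The 1 tested marker of that list was lower without overlap, and Epx was at 0 in all libraries. T cell markers summed to 19.2 to 35.6 and 17.5 to 25.3 FPKM, and erythroid markers to 1.70 to 4.64 and 1.76 to 39.3 FPKM. Lck made up most of the T cell sum, at 13.7 to 28.9 FPKM in WT and 10.8 to 20.6 FPKM in PP2Aa-deficient libraries. Of the 6 T cell markers, 3 were too low to be tested. The part of these other cells in the values below was not tested. In bulk libraries fewer cells of a type and less RNA per cell cannot be told apart.

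Of the 38 members, 36 reached 1 FPKM in at least 3 libraries and were tested. The untested members were Ndufs5 and Ndufa4l2. Ndufs5, an accessory subunit on the intermembrane side of the proximal arm, measured 11.2, 0.00098 and 0.0018 FPKM across WT libraries and 4.07, 0 and 0 FPKM across PP2Aa-deficient libraries. It was therefore at or near 0 in 4 libraries of both genotypes; an exact 0 may stand for an estimate that failed. Ndufa4l2, a paralog of Ndufa4 known to be induced by hypoxia, was listed at 0 in all 6 libraries.

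The tested subunits spanned mean levels from 8.04 to 218 FPKM over the 6 libraries, with a median of 57.5 FPKM. The highest was Ndufa4, which carries a complex I name but is assigned to complex IV, which measured 297, 138 and 191 FPKM across WT libraries and 283, 198 and 199 FPKM across PP2Aa-deficient libraries. The next were Ndufa3, a small subunit of the proximal arm, and Ndufa6, a subunit at the N module that binds acyl carrier protein. Ndufa3 had 182, 152 and 158 FPKM in the WT libraries, against 200.2, 109 and 168 FPKM with PP2Aa deficiency. Ndufa6 measured 202, 144 and 145 FPKM across WT libraries and 150.1, 135 and 139 FPKM across PP2Aa-deficient libraries. Ndufa3 and Ndufa6 had libraries of both groups within the range of the other group, while for Ndufa4 the 3 PP2Aa-deficient libraries lay inside the wider WT range. The ranges of these genes overlapped one another. At the low end stood Ndufa11, a membrane subunit at the junction of the arms, which measured 10.02, 6.62 and 6.56 FPKM across WT libraries and 8.32, 10.5 and 6.25 FPKM across PP2Aa-deficient libraries. The values of Ndufa11 rest on about 8 to 13 fragments per library, by transcript lengths of GENCODE M21. Over the tested subunits the fewest fragments in any library had a median of about 115.5. The plot of subunit levels gives every library's value for 35 of the 36 tested genes.

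**Figure D1:**
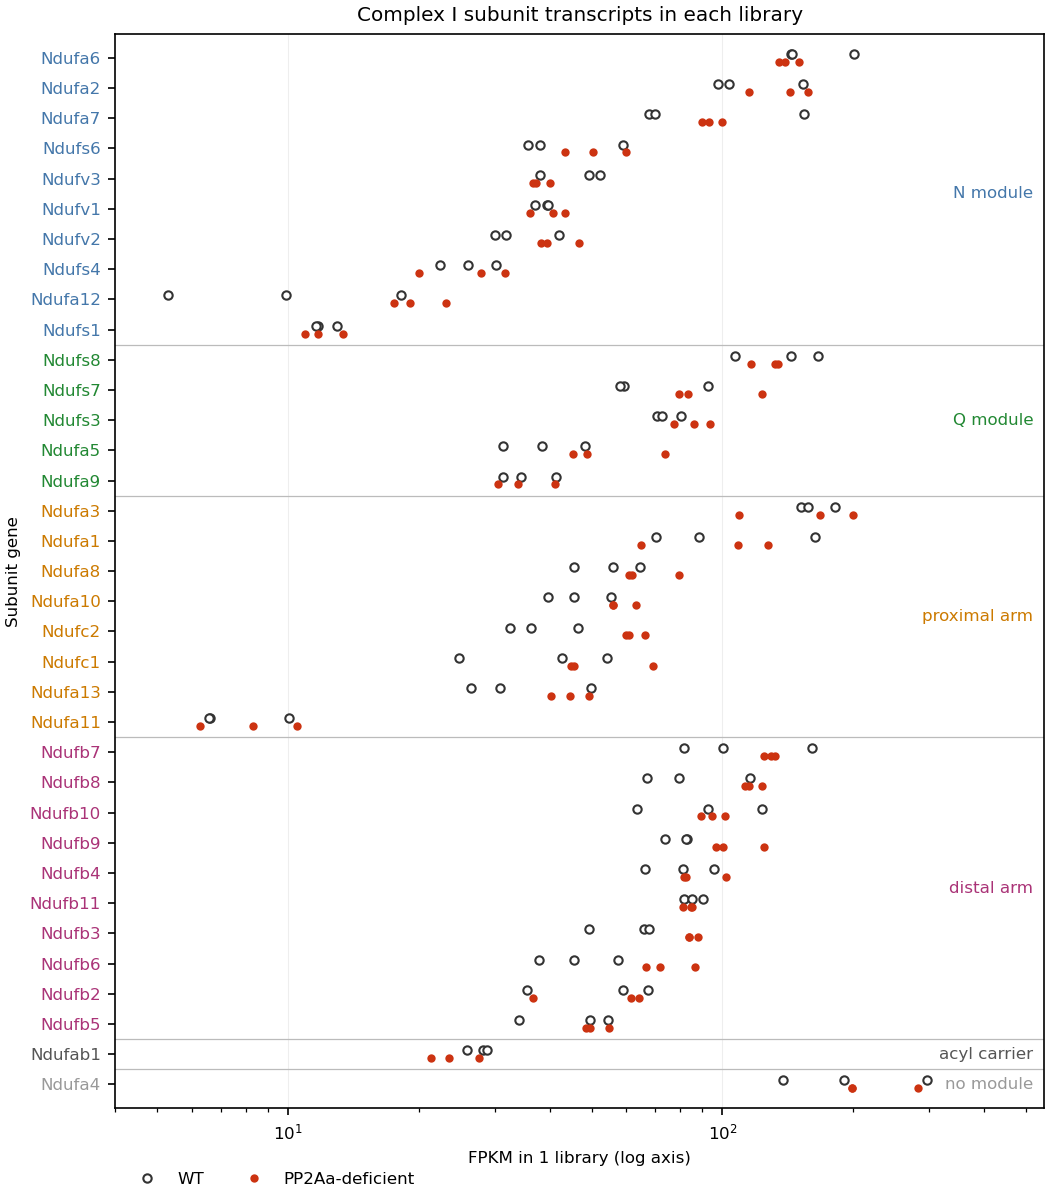
FPKM of 35 tested complex I subunit genes in each library (log axis), with WT libraries as open circles and PP2Aa-deficient libraries as red points, grouped by the part of the complex. Subunit means run from 8.04 to 218 FPKM, and in most genes both kinds of points share a range.

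No complex I subunit passed the test between PP2Aa-deficient and WT B cells, where 3 of 9425 genes (0.0318%) passed in either direction (limma on log2(FPKM + 1), Benjamini-Hochberg adjusted over all tested genes at 0.05). The smallest adjusted p among the subunits was 0.225. Of the 36 subunits, 26 had a higher mean log2 value in PP2Aa-deficient B cells and 10 a lower one, or 72.2% higher, against 48.9% of all tested genes. Of the cytosolic ribosomal protein genes, 61 of 79 (77.2%) had a higher mean, with a median log2 change of 0.08. The median log2 change was 0.17 for the subunits and -0.01 for all tested genes. An unadjusted limma p under 0.05 with a higher value was found for 6 subunits (16.7%), against 5.06% of all tested genes, and with a lower value for 0 subunits, against 4.41%. That count of 6 was 15 without WT replicate 1, 12 with array weights, which give each library its own weight, 3 without WT replicate 2 and 4 without either PP2Aa-deficient replicate 2 or 3. Over all genes and both directions, the count at that p was 893 as reported, 1011 without WT replicate 1 and 1167 with array weights. It was 647 without WT replicate 2, 842 without PP2Aa-deficient replicate 2 and 697 without PP2Aa-deficient replicate 3. These fits tested 9217 to 9425 genes. Without WT replicate 3, 1 subunit had a lower value at that p. The groups did not overlap, with PP2Aa-deficient libraries higher, in 5 subunits (13.9%), against 7.7% of all tested genes, and in 0 subunits with PP2Aa-deficient libraries lower, against 7.4%. The subunits share libraries and are not independent of each other, so these counts describe the list and no test was made on it.

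**Figure D2:**
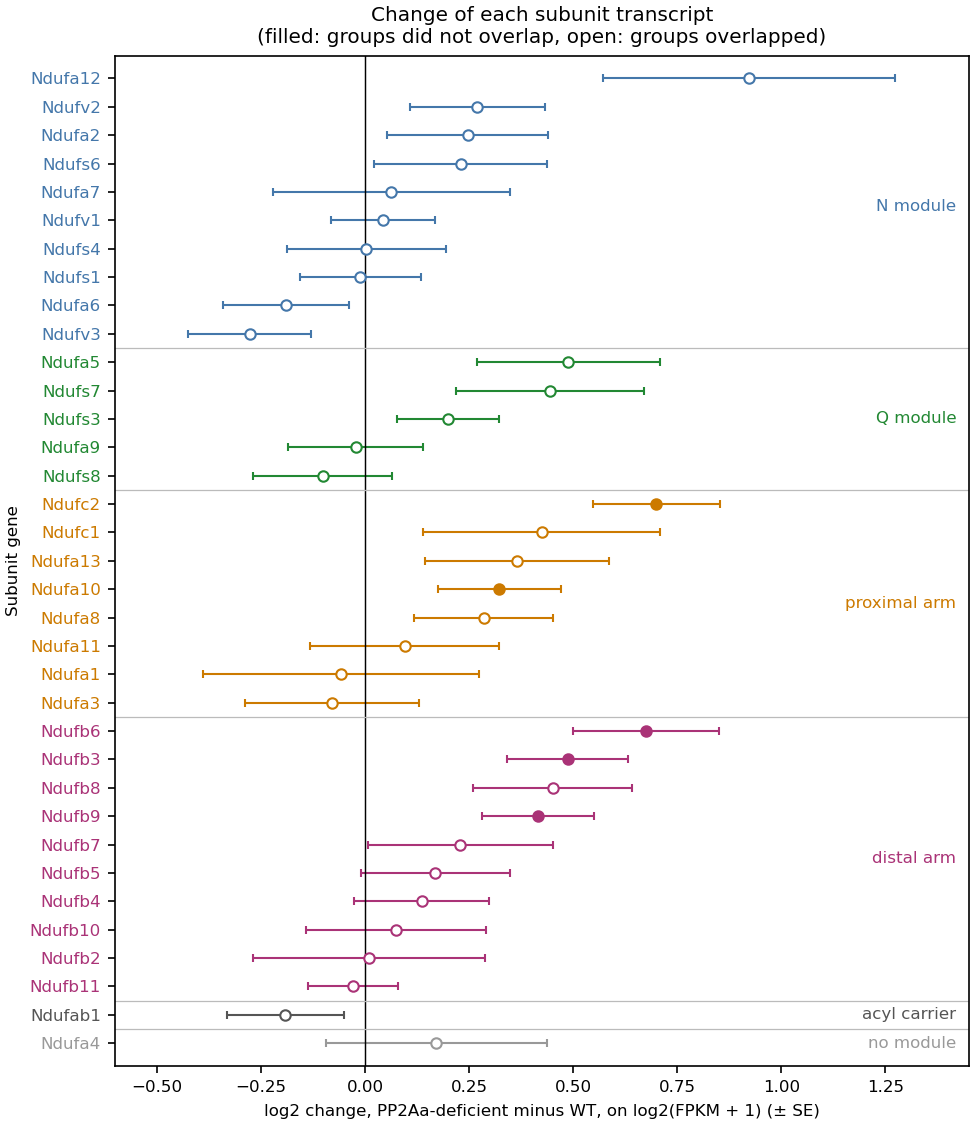
Log2 change of the same 35 tested subunits (PP2Aa-deficient minus WT, on log2(FPKM + 1)) with its SE from limma, grouped by the part of the complex. Filled points mark the 5 subunits whose groups did not overlap, 2 in the proximal and 3 in the distal membrane arm.

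The 7 nuclear core subunits had a median log2 change of 0.04, with 4 higher and 3 lower means, and the groups overlapped in each. Ndufv1, which binds NADH and the flavin, had 39.4, 37.0 and 39.8 FPKM in the WT libraries, against 36.02, 40.7 and 43.4 FPKM with PP2Aa deficiency. Its log2 change was 0.04 (SE 0.12), with a limma adjusted p of 0.946. Ndufs1, the largest core subunit and a carrier of iron-sulfur clusters, measured 11.7, 12.9 and 11.6 FPKM across WT libraries and 13.4, 11.7 and 10.9 FPKM across PP2Aa-deficient libraries. Levels of these 2 genes differed little between any libraries, and Ndufs1 was the lowest of the core subunits on the FPKM scale. Ndufv2, an iron-sulfur subunit of the N module, had 42.0, 31.7 and 29.9 FPKM in the WT libraries, against 46.8, 39.4 and 38.3 FPKM with PP2Aa deficiency, where WT replicate 1 lay inside the range of the other group.

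Of the core subunits of the Q module, Ndufs3 and Ndufs7 had higher means in PP2Aa-deficient B cells and Ndufs8 a lower one. Ndufs7, which carries the last iron-sulfur cluster before ubiquinone, had 92.5, 59.4 and 58.2 FPKM in the WT libraries, against 79.3, 124 and 83.2 FPKM with PP2Aa deficiency. Its log2 change was 0.44 (SE 0.23), with a limma adjusted p of 0.585, and it was 0.24 both without PP2Aa-deficient replicate 2 and with a term for relative depth. Ndufs3 measured 80.1, 70.8 and 72.7 FPKM across WT libraries and 86.2, 93.8 and 77.4 FPKM across PP2Aa-deficient libraries, and 1 library of each group lay inside the range of the other. Ndufs8, a carrier of iron-sulfur clusters, had 166, 107 and 144 FPKM in the WT libraries, against 134, 133 and 116 FPKM with PP2Aa deficiency, all 3 of them inside the WT range.

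Among the accessory subunits of the matrix arm, 2 had the smallest p of their modules, Ndufa12 in the N module and Ndufa5 in the Q module. Ndufa12, a paralog of the assembly factor Ndufaf2, measured 5.28, 9.90 and 18.2 FPKM across WT libraries and 19.1, 23.1 and 17.5 FPKM across PP2Aa-deficient libraries. WT replicate 3 was level with the PP2Aa-deficient libraries and the other WT libraries were lower. Its log2 change of 0.92 (SE 0.35) was the largest of all subunits, with a limma adjusted p of 0.466, and it was 0.52 without WT replicate 1 and 1.33 without WT replicate 3. The values of Ndufa12 rest on about 12 to 51 fragments per library. Ndufa5 had 48.2, 31.2 and 38.5 FPKM in the WT libraries, against 45.3, 48.7 and 73.9 FPKM with PP2Aa deficiency, with 1 WT library inside the other range (log2 change 0.49, SE 0.22, limma adjusted p = 0.538). Without PP2Aa-deficient replicate 3 the log2 change of Ndufa5 was 0.27. Over the modules, 7 of 10 N module subunits (median log2 change 0.05) and 3 of 6 Q module subunits (median 0.09) had higher means in PP2Aa-deficient B cells. Ndufab1, the mitochondrial acyl carrier protein, which also serves fatty acid synthesis, measured 28.1, 25.9 and 28.7 FPKM across WT libraries and 27.6, 21.3 and 23.4 FPKM across PP2Aa-deficient libraries (limma adjusted p = 0.737).

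In the proximal membrane arm 6 of 8 tested subunits had higher means in PP2Aa-deficient B cells, with a median log2 change of 0.30. Ndufc2, a small accessory membrane protein, had 36.3, 32.4 and 46.6 FPKM in the WT libraries, against 60.01, 66.3 and 60.8 FPKM with PP2Aa deficiency. Every PP2Aa-deficient library lay above every WT library, a difference from 38.4 ± 7.30 to 62.4 ± 3.45 FPKM (SD, n = 3). On the log2 scale this was a change of 0.70 (SE 0.15), with a limma adjusted p of 0.225. Ndufa10, an accessory subunit with a fold related to nucleoside kinases, measured 55.3, 39.7 and 45.5 FPKM across WT libraries and 63.1, 55.9 and 56.1 FPKM across PP2Aa-deficient libraries. The groups of Ndufa10 were apart by a narrow margin, since WT replicate 1 lay just under the lowest PP2Aa-deficient library (log2 change 0.32, SE 0.15, limma adjusted p = 0.54). Without WT replicate 2 the log2 change of Ndufa10 was 0.21.

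In the distal membrane arm 9 of 10 subunits had higher means in PP2Aa-deficient B cells, with a median log2 change of 0.20. Without WT replicate 2, 6 of 10 were higher and the median was 0.0095. A higher value at an unadjusted limma p under 0.05 was found for 4 of the 10 (40%), against 5.06% of all tested genes. Ndufb6, an accessory membrane protein, had 57.5, 45.6 and 37.8 FPKM in the WT libraries, against 86.4, 71.9 and 66.6 FPKM with PP2Aa deficiency. The lowest PP2Aa-deficient value exceeded the highest WT value, and Ndufb6 measured 160% of its WT mean (log2 change 0.68, SE 0.18, limma adjusted p = 0.261). Ndufb3, another membrane subunit, measured 66.02, 49.3 and 67.7 FPKM across WT libraries and 83.6, 88.0 and 83.6 FPKM across PP2Aa-deficient libraries. PP2Aa-deficient libraries were close together and all above WT (log2 change 0.49, SE 0.14, limma adjusted p = 0.365). Ndufb9, which like Ndufa6 binds acyl carrier protein, had 83.1, 73.6 and 82.5 FPKM in the WT libraries, against 96.4, 100.2 and 125 FPKM with PP2Aa deficiency. Its groups did not overlap (log2 change 0.42, SE 0.14, limma adjusted p = 0.397). Ndufb8 measured 116, 66.98 and 79.6 FPKM across WT libraries and 115, 123 and 113 FPKM across PP2Aa-deficient libraries, so WT replicate 1 lay among the PP2Aa-deficient values (log2 change 0.45, SE 0.19, limma adjusted p = 0.511). The log2 change of Ndufb8 was 0.28 without WT replicate 2 and 0.25 with the depth term.

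The 16 other tested subunits had means from 26.3 to 128 FPKM and log2 changes from -0.28 to 0.42, with 12 higher and 4 lower and limma adjusted p from 0.606 to 0.999. Ndufb11 and Ndufa1, chosen after their values were seen, are encoded on the X chromosome. Ndufb11, of the distal arm, had 90.1, 81.5 and 85.01 FPKM in the WT libraries, against 85.1, 84.8 and 81.3 FPKM with PP2Aa deficiency, a difference of -0.03 on the log2 scale (SE 0.11). Ndufa1, of the proximal arm, measured 163, 88.3 and 70.3 FPKM across WT libraries and 127, 64.9 and 109 FPKM across PP2Aa-deficient libraries. Its highest value in each group came from replicate 1, the library of that group with Xist, the transcript of the inactive X chromosome, at 65.2 FPKM in WT and 84.5 FPKM in PP2Aa-deficient B cells. Replicate 1 was also the highest of each group for Ndufb11 and for many subunits not on the X chromosome. Among them were Ndufa2, Ndufa3, Ndufa4, Ndufa6, Ndufa8 and Ndufa10. Of the 36 tested subunits, WT replicate 1 was the highest of the 6 libraries for 11 and PP2Aa-deficient replicate 1 for 10. A link of Ndufa1 to Xist was not tested. The members lie on 15 chromosomes, and 5 of them (Ndufa7, Ndufa11, Ndufb10, Ndufv2 and Ndufv3) lie on chromosome 17 with Ppp2r1a, by RefSeq genes of GRCm38.p6. Those 5 had log2 changes from -0.28 to 0.27, and none of the 5 subunits without overlap was among them.

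Promoter windows are shown for 4 of the 5 subunits without overlap. They were picked by that trait, which 7.7% of all tested genes shared in the same direction, and none of them passed the test. Each window covers 250 bases before to 50 bases after the gene start, from RefSeq on GRCm38.p6, 5′ to 3′ on the strand of the gene, and capitals mark a match to 1 of the motifs named below. The windows are chr7:97399753-97400052 on the plus strand for Ndufc2, chr4:40279372-40279671 on the minus strand for Ndufb6, chr1:58586147-58586446 on the plus strand for Ndufb3 and chr1:92473709-92474008 on the minus strand for Ndufa10.
Ndufc2: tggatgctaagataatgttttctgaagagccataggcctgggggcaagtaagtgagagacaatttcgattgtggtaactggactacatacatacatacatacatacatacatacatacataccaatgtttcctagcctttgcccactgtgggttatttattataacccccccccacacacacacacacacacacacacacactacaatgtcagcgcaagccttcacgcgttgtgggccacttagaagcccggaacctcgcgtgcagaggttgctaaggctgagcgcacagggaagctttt
Ndufb6: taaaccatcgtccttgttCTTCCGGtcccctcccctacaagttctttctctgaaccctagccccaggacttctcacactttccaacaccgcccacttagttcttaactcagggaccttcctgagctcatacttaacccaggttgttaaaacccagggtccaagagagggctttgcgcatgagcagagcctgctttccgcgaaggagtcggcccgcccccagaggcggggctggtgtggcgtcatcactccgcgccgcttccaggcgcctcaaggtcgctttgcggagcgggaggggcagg
Ndufb3: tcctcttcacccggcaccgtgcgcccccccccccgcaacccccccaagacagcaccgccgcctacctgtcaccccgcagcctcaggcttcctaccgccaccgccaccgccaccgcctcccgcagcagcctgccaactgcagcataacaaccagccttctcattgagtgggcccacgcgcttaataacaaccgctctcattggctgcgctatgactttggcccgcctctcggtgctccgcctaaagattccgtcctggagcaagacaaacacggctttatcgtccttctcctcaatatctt
Ndufa10: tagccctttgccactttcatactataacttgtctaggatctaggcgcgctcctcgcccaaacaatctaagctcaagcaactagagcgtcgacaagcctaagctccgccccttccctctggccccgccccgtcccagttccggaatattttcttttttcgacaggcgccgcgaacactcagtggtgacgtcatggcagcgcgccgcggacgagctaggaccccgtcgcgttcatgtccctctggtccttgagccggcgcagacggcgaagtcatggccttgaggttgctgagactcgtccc

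Motifs of NRF1, GABP and YY1, factors known to bind promoters of respiratory chain genes, and the TATA box were searched on both strands. An ETS motif (CCGGAAG), the kind bound by GABP, was found in 1 of the windows shown, Ndufb6, where it starts 232 bases before the gene start on the other strand. Over all tested members with a window, 4 of 32 held it (Ndufb6, Ndufb7, Ndufs3 and Ndufs8), or 12.5%, against 23.5% of tested genes with a window and 9.93% of all genes with a window. The central letters of the NRF1 motif (GCATGCG) were in 3 of 32 members (9.38%), against 8.29% of tested genes and 4.01% of all genes. The central letters of the YY1 motif (ATGGCGG) were in 8 of 32 members (25.0%), against 10.99% of tested genes and 4.69% of all genes. In Ndufa9, Ndufb5, Ndufs4, Ndufs6 and Ndufs7 the match started 19 to 38 bases after the gene start, not before it. Longer forms of the NRF1 and YY1 motifs had been counted first, in 3 (9.38%) and 4 (12.5%) of 32 members, against 6.59% and 3.47% of tested genes. The TATA box (TATAAA) was in 4 of 32 members (12.5%), against 8.13% of tested genes and 15.7% of all genes. These matches describe letters in a window and are not binding sites.

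Genes that regulate the respiratory chain were read beside the subunits, and 10 of 11 were tested. Gabpb1, the beta chain of GABP, had 12.4, 11.8 and 13.02 FPKM in the WT libraries, against 5.78, 5.89 and 8.33 FPKM with PP2Aa deficiency. All PP2Aa-deficient libraries were below all WT libraries, and the log2 change was -0.82 (SE 0.17), with a limma adjusted p of 0.197. Gabpa, its DNA-binding partner, measured 5.93 ± 1.84 FPKM in WT and 5.67 ± 0.999 FPKM in PP2Aa-deficient B cells (SD, n = 3). Nrf1 measured 12.1 ± 2.87 and 12.99 ± 0.48 FPKM in the same order, and the coactivator gene Ppargc1a did not reach 1 FPKM in any library. In all, 3 of the 10 had higher means and 7 lower, and 0 passed the test.

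The assembly factors, which build complex I and are not part of it, had higher means in 7 of 17 genes and lower means in 10, with a median log2 change of -0.02. None passed the test, and the smallest limma adjusted p was 0.436. Ecsit measured 6.23, 5.85 and 6.13 FPKM across WT libraries and 9.20, 13.01 and 7.19 FPKM across PP2Aa-deficient libraries, without overlap (log2 change 0.58, SE 0.21, or 0.37 without PP2Aa-deficient replicate 2). Ndufaf4 had 2.78, 2.38 and 2.47 FPKM in the WT libraries, against 3.52, 4.40 and 3.75 FPKM with PP2Aa deficiency, also without overlap (log2 change 0.46, SE 0.18). These were the 2 assembly factors higher without overlap (11.8%, against 7.7% of all tested genes). Another 1 was lower without overlap, where 7.4% of all tested genes were. Nuclear subunits of complexes II to V had higher means in 26 of 38 genes (68.4%), with a median log2 change of 0.08 and 0 passing. Of these genes, 5 (13.2%) had a higher value at an unadjusted limma p under 0.05, against 5.06% of all tested genes. Higher without overlap were 4 (10.5%), against 7.7% of all tested genes. In complex III, 3 of 9 genes (33.3%) were higher without overlap, where 3 of 10 (30%) were in the distal arm of complex I. At an unadjusted limma p under 0.05, 2 genes of complex III (22.2%) had a higher value. Over complexes II to V the smallest limma adjusted p was 0.186 and the largest log2 change 1.34. The difference between these lists and the complex I subunits was not tested.

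The libraries of 1 group were not alike. Summed over the members, complex I transcripts came to 3024, 2065 and 2354 FPKM across WT libraries and to 2879.9, 2680.01 and 2647 FPKM across PP2Aa-deficient libraries. WT replicate 1 was thus the highest library of all and WT replicate 2 the lowest. As a share of all FPKM in a library, the members took 0.546%, 0.454% and 0.511% across WT libraries and 0.593%, 0.492% and 0.536% across PP2Aa-deficient libraries, with overlap between the groups. Against each gene's own mean, the median subunit stood at 0.17, -0.31 and -0.12 across WT libraries and at 0.10, 0.10 and 0.03 across PP2Aa-deficient libraries, on the log2 scale. WT replicate 2 was the lowest of the 6 libraries for 16 of 36 subunits, and for 8 of 10 in the distal arm. Cytosolic ribosomal protein genes, which often follow RNA quality, stood at 0.15, -0.18 and -0.10 across WT libraries and at 0.09, 0.03 and -0.03 across PP2Aa-deficient libraries, on the same scale. Their part in the subunit values was not tested.

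**Figure D3:**
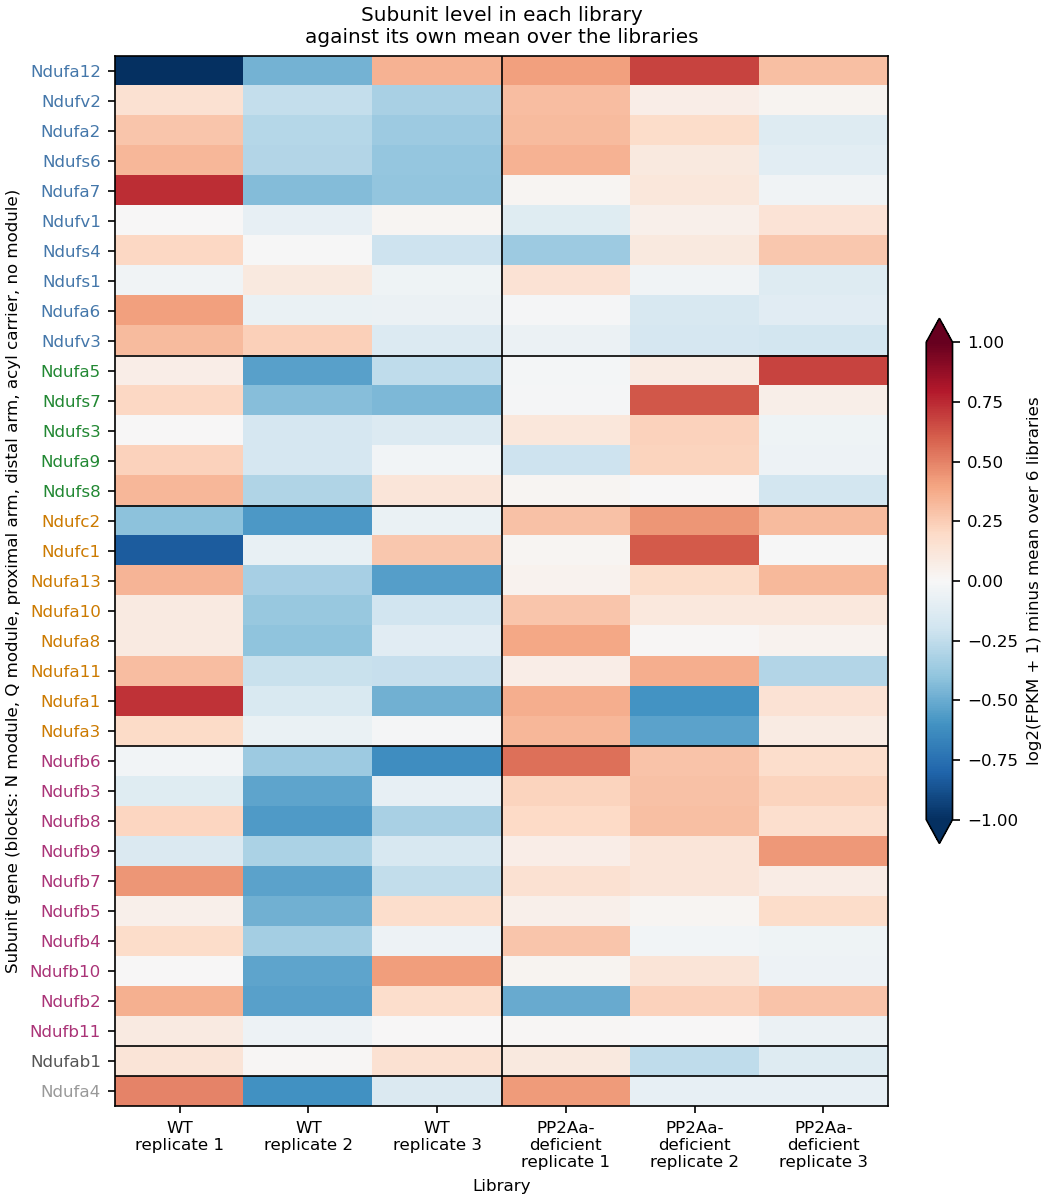
Level of 35 tested subunits in each library as log2(FPKM + 1) minus the gene's mean over the 6 libraries, red above and blue below that mean, with WT to the left of the line and genes in blocks by part of the complex. Most of the column of WT replicate 2 is blue, at a median of -0.31, and most of the column of WT replicate 1 is red, at a median of 0.17.

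The median of the list depended on WT replicate 2, the deepest library. Without it the median log2 change of the subunits was 0.01, with 22 of 36 higher, and in the distal arm 6 of 10 were higher with a median of 0.0095. With a term for relative depth the median was 0.03, with 20 of 36 higher. Relative depth was 1.76 in WT replicate 2 and 0.978 to 1.23 in the other libraries, so depth and that library cannot be told apart. Without WT replicate 1 the median was 0.28, with 30 of 36 higher. Ndufc2, Ndufb6, Ndufb3, Ndufb9 and Ndufa10 had positive log2 changes under all 17 alternatives, from 0.59 to 0.84 for Ndufc2 and from 0.53 to 0.83 for Ndufb6. These are the subunits whose groups did not overlap, so leaving out 1 library could not reverse their sign. Other filters or variance models could not reverse it either, so the sign says little about stability. Neither these 5 nor any other subunit passed the test under any of the 17 alternatives.

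**Figure D4:**
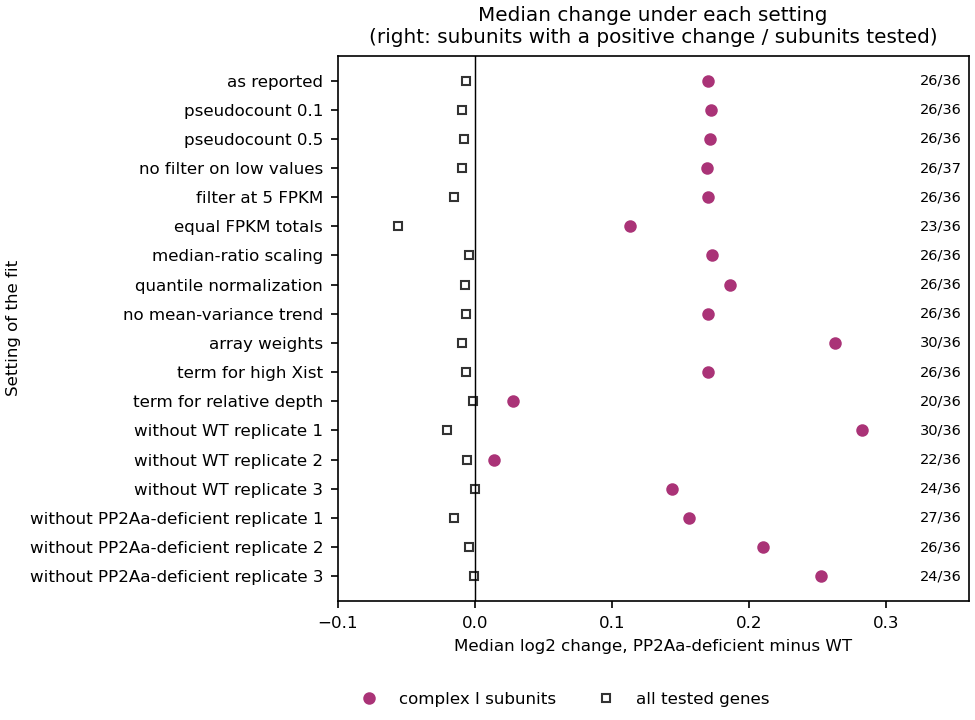
Median log2 change (PP2Aa-deficient minus WT) of the tested complex I subunits (filled circles) and of all tested genes (open squares) as reported and under each alternative, with the number of subunits above 0 at the right. The subunit median runs from 0.01 without WT replicate 2 to 0.28 without WT replicate 1.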

How the data were processed

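RNA of 3 WT and 3 PP2Aa-deficient B cell libraries was measured by low-input SmartSeq2 sequencing, per the labels' protocols. The authors deposited gene FPKM values, 1 column per library. Cuffnorm, Cufflinks 2.2.1, TopHat2 2.0.10 and BWA are listed, per the submitters' processing notes, without their roles. Genome build, annotation and strandedness: not given in the sources used here. Of 22815 rows, 27 named by dates were left out. FPKM leaves out depth, so relative depth was read from the commonest ratio of low values between libraries.

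Genes with FPKM of at least 1 in at least 3 libraries were tested as log2(FPKM + 1) with limma 3.58.1 in R 4.3.3 (two-sided, mean-variance trend), with Benjamini-Hochberg adjustment over 9425 genes. Changes are on that scale, which understates low genes. Nothing in the labels says that libraries came from separate mice. Xist measured 65.2, 0.027 and 0.116 FPKM across WT libraries and 84.5, 0 and 0.021 FPKM across PP2Aa-deficient libraries. The libraries of a group therefore did not all come from 1 mouse, but the number of mice is not known. The p-values cover only the spread among these samples, part of which may be technical. Python 3.11.15, pandas 2.3.3, numpy 2.4.6 and matplotlib 3.10.9 served for summaries. The limma step was tested on simulated data.

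The members and lists were chosen with earlier results of these data known. Some items that the rule for named genes or the marker lists took are not reported here, though counts and medians over the members include them. Values in each library are given for the other core subunits, members with an unadjusted p under 0.05 or with groups that did not overlap at a mean of at least 5 FPKM, the smallest p of each module, the 3 highest and 3 lowest members, and untested members. Of the other lists, genes with an unadjusted p under 0.05 could be named, with Gabpa, Nrf1 and Ppargc1a added after their values were seen. The promoter motifs were chosen after the subunit values were seen, and the 7-letter NRF1 and YY1 forms after the longer forms had been counted. Promoter windows were found for 33 of 38 members. Overlapping genes were looked up by name only in RefSeq genes of GRCm38.p6, and reads shared with them or with near-identical copies cannot be separated. Alternatives were other pseudocounts, filters, scalings, variance models, terms for Xist and depth, and leaving out each library.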

Additional observations from a re-analysis of the deposited data

How the results depend on the processing

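Over 17 alternatives, 0 complex I subunits were called in either direction, and their median log2 change stayed above 0, from 0.01 to 0.28. The number with a positive change ran from 20 to 30. Over all genes, the number called higher went from 0 to 1 with no filter, 3 with a filter at 5 FPKM, 6 with equal FPKM totals, 7 with quantile normalization, 4 without the mean-variance trend and 11 with array weights. The number called lower went from 3 to 7 with equal FPKM totals and to 5 both without the trend and with array weights. Leaving out 1 library gave 0 to 4 higher and 1 to 12 lower genes. Equal FPKM totals moved the share of tested genes above 0 from 48.9% to 41.1% and the subunits to 23 of 36, with a median of 0.11.

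Of the tested subunits given by library, 8 changed sign under at least 1 alternative. With the depth term the log2 change was -0.069 for Ndufa11, -0.064 for Ndufa4, 0.034 for Ndufs1 and 0.092 for Gabpa. With array weights it was 0.0068 for Ndufa3, 0.012 for Ndufs8, 0.126 for Ndufa1 and -0.00036 for Nrf1, and with equal FPKM totals -0.014 for Ndufv1. Leaving out 1 library gave -0.064 to 0.27 for Ndufa11, -0.27 to 0.17 for Ndufa3, -0.090 to 0.46 for Ndufa4, -0.085 to 0.049 for Ndufs1, -0.28 to 0.038 for Ndufs8, -0.016 to 0.11 for Ndufv1, -0.31 to 0.29 for Ndufa1, -0.064 to 0.0081 for Ndufb11, -0.21 to 0.17 for Gabpa and -0.035 to 0.28 for Nrf1. The cause was not tested. No paired analysis was possible because the labels give no replicate numbers. Genes of few fragments, such as Ndufa11, are limited by depth.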
